A study of Loxodonta africana with 12 samples.

Results

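The surface receptors by which B cells sense antigen, complement, IgE and neighbouring cells were followed in African elephant (Loxodonta africana) blood cells. The set holds 9 genes chosen by symbol, namely MS4A1, CD79A, CD79B, CD22, CR2, FCRL1, CD72, FCER2 and BTLA. All 9 had a row in both deposited tables, of 16406 genes in all, and all 9 passed the filter on low counts in every comparison. RNA sequencing libraries came from 4 groups of 3: untreated cells at 5 h, cells irradiated at 2 Gy at 5 h, untreated cells at 24 h and cells irradiated at 2 Gy at 24 h. All groups are labelled only as blood, and the labels give no age, sex or number of animals. Whether replicates came from separate animals or cultures is not stated. The p-values therefore reflect only how far these libraries scatter, and that scatter may be technical.

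The B cell receptor is a membrane immunoglobulin that cannot signal alone. CD79A and CD79B form the dimer that carries its signal into the cell, through tyrosine motifs that recruit LYN and SYK. CR2 (CD21) binds complement fragments on antigen and lowers the threshold for signalling, whereas CD22, CD72 and BTLA carry inhibitory motifs that recruit phosphatases such as SHP-1. MS4A1 encodes CD20, FCRL1 a receptor that enhances signalling, and FCER2 the low-affinity IgE receptor CD23. Resting lymphocytes are known as one of the most radiosensitive cell types of blood.

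Library totals ranged from 18.0e6 to 38.1e6 counts. Levels are given as CPM, counts scaled to library size with TMM factors (trimmed mean of M values) over all 12 libraries, and as the authors' FPKM, which is per length, where genes are compared with each other. Of the defining B cell genes outside the set, the transcription factor PAX5 was detected in every library (32 to 667 counts).

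Untreated cells at 5 h carried far more FCER2 than any other receptor of the set. On the FPKM scale its level was 222, 192 and 359 in the 3 libraries (257.7 ± 88.8, mean ± SD, n = 3). CD79B followed at 70.6 ± 7.36, then MS4A1 at 50.5 ± 10.1, CD22 at 32.4 ± 2.21 and CD79A at 27.0 ± 4.78. FCRL1 (20.2 ± 0.32), CD72 (20.03 ± 3.42), CR2 (15.3 ± 3.80) and BTLA (8.01 ± 1.43) were lower. The libraries' ranges overlapped for the neighbours CD22 and CD79A, FCRL1 and CD72, and CD72 and CR2 in this order, and for no other neighbours. In untreated cells at 24 h FCER2 was again highest (608 ± 375), followed by CD79B (139 ± 16.6), MS4A1 (112 ± 16.6) and CD72 (94.3 ± 10.1), with CR2 lowest (18.4 ± 4.90). Neighbours whose ranges overlapped there were CD79B and MS4A1, MS4A1 and CD72, FCRL1 and CD79A, and BTLA and CR2.

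**Figure D1:**
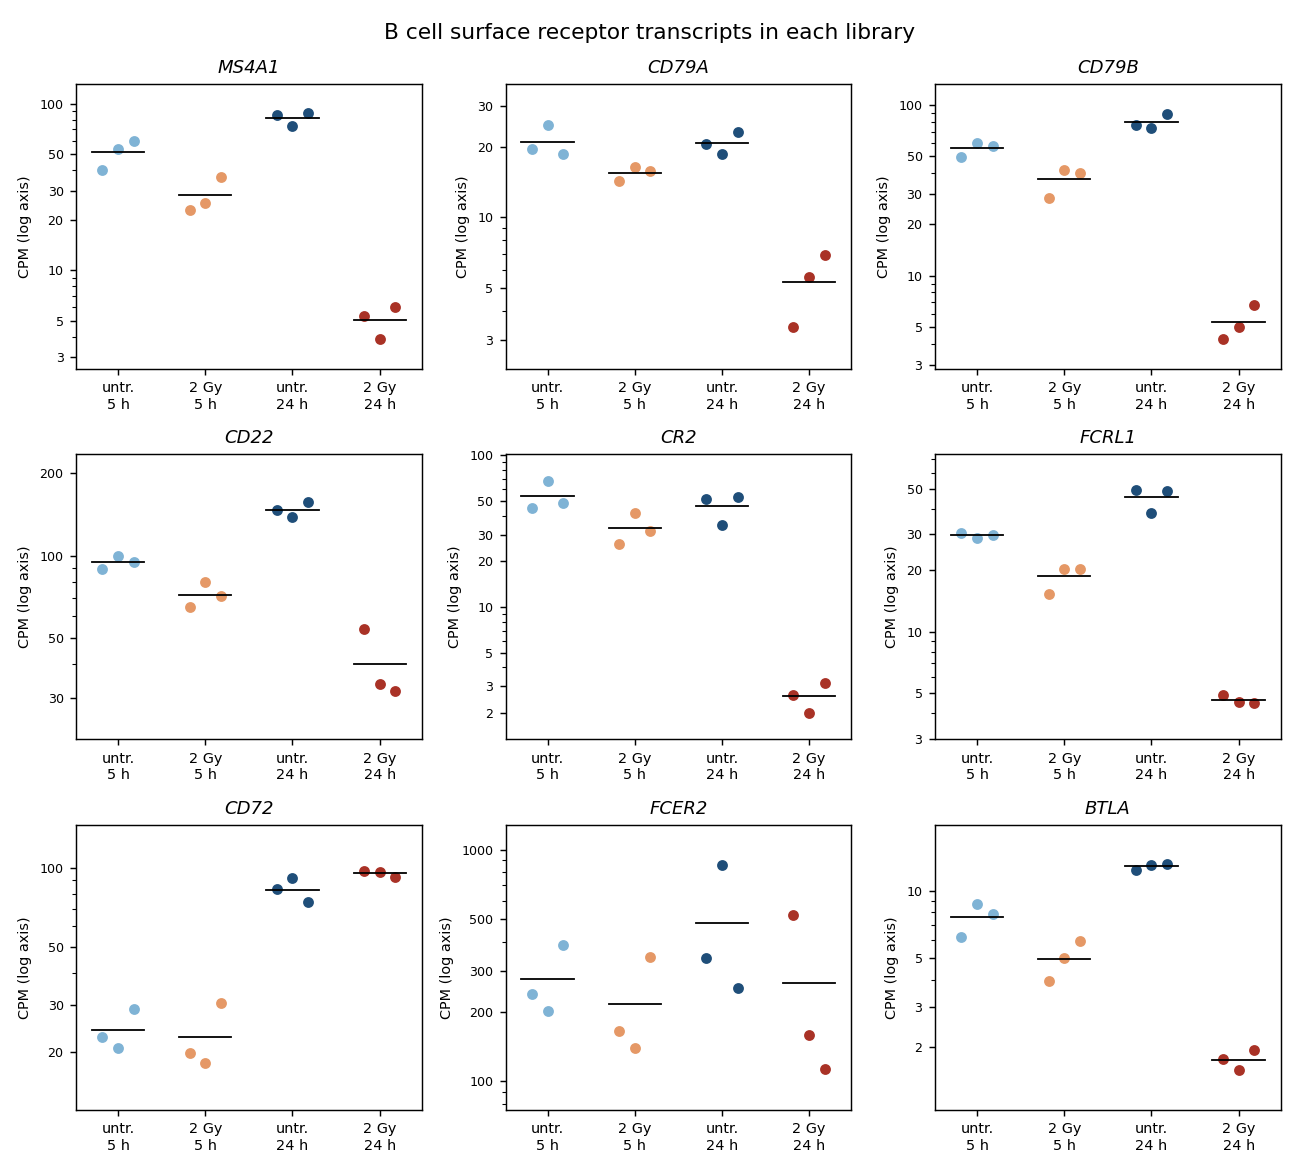
CPM of each receptor (log axis) in the 3 libraries of each group, as points, with the group mean as a line. In 7 genes the irradiated libraries at 24 h lie below every other library, CD72 is high at 24 h in both treatments, and the FCER2 libraries spread widely within each group.

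The signalling dimer and MS4A1 were compared first at 24 h, where 7 of the 9 receptors were called lower after irradiation and 0 higher. MS4A1 (ENSLAFG00000015517, scaffold 71, 9060073 to 9066418, minus strand) measured 85.6, 73.4 and 87.9 CPM in untreated and 5.31, 3.85 and 6.04 CPM in irradiated libraries. The lowest untreated library thus lay far above the highest irradiated one, and the gene fell 16.4-fold (log2 fold change -4.04 ± 0.18 SE, edgeR adjusted p = 0.00017). In bulk RNA, fewer B cells and less RNA per cell cannot be told apart. CD79B (ENSLAFG00000014432, scaffold 31, 29707549 to 29710948, minus strand) measured 76.7, 73.7 and 89.1 CPM in untreated and 4.27, 5.01 and 6.70 CPM in irradiated libraries. Its groups did not overlap either, and it fell 15.2-fold (-3.92 ± 0.18). CD79A, the partner chain (ENSLAFG00000028066, scaffold 283, 125568 to 129362, plus strand), measured 20.6, 18.6 and 23.1 CPM in untreated and 3.40, 5.55 and 6.90 CPM in irradiated libraries. The groups stood apart, but the fall of CD79A was 3.98-fold (-1.99 ± 0.24, adjusted p = 0.0054).

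Of all 14373 genes tested at 24 h, 4.94% were called lower, against 7 of these 9, and 1.8% higher, against 0 of these 9. A further count was that 16.8% had irradiated libraries all below the untreated ones, as these 7 had. The median log2 fold change of the 9 was -2.89, beside 0.01 over all genes. Since the genes were picked with results of these data known, these shares describe the set and do not test it.

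CR2, the complement receptor (ENSLAFG00000009563, scaffold 13, 12923071 to 12939720, plus strand), had the lowest log2 fold change of the set at 24 h. Untreated libraries held 52.0, 34.8 and 53.4 CPM and irradiated libraries 2.63, 2.01 and 3.15 CPM, an 18.2-fold fall (-4.18 ± 0.24, edgeR adjusted p = 0.00032). Irradiated libraries held 45 to 69 counts of CR2 each. FCRL1 (ENSLAFG00000002483, scaffold 33, 6354582 to 6365857, minus strand) went from 49.4, 38.1 and 49.2 CPM to 4.92, 4.52 and 4.47 CPM, with an SD of 0.25 CPM among the irradiated libraries. Its fall was 9.88-fold (-3.30 ± 0.15). FCRL1 and CR2 belong to families of related genes, and the sources used here do not say how reads shared between relatives were counted.

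The inhibitory receptors did not behave alike. CD22, a sialic acid binding lectin (ENSLAFG00000007755, scaffold 99, 538760 to 548434, minus strand), went from 147, 138 and 157 CPM to 54.0, 34.0 and 31.9 CPM at 24 h, a 3.71-fold fall (-1.89 ± 0.21, edgeR adjusted p = 0.0036). Irradiated replicate 1 was the highest of its group. BTLA, which binds the TNF receptor family member HVEM (ENSLAFG00000016285, scaffold 25, 34317054 to 34336896, plus strand), went from 12.4, 13.1 and 13.2 CPM to 1.76, 1.57 and 1.93 CPM. That is a 7.41-fold fall (-2.89 ± 0.13, adjusted p = 0.00017) on 35 to 46 counts per irradiated library. BTLA is also known on T cells. Of 19 T cell markers 4 were called lower at 24 h as well, and all 19 had negative log2 fold changes. Their part in the BTLA result was not tested.

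CD72, whose ligand is CD100 (SEMA4D), was the exception among them (ENSLAFG00000026654, scaffold 6, 64714853 to 64720943, plus strand). Untreated libraries at 24 h held 83.1, 91.5 and 74.0 CPM and irradiated libraries 97.5, 96.8 and 92.6 CPM. On this scale the irradiated libraries lay just above the untreated ones, whereas on the FPKM scale, which has no TMM factor, the ranges overlapped (82.9 to 102.1 against 96.4 to 108.8). The log2 fold change was 0.20 ± 0.10 and did not pass (edgeR adjusted p = 0.32). As background, 9.42% of genes had irradiated libraries all above the untreated ones at 24 h.

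FCER2 (ENSLAFG00000028940, scaffold 114, 1730154 to 1737398, minus strand) varied more within groups than any other receptor of the set. At 24 h untreated libraries held 341, 854 and 253 CPM and irradiated libraries 523, 159 and 113 CPM. The highest irradiated library lay above 2 of the 3 untreated ones, so the groups overlapped. The log2 fold change of -0.86 ± 0.66 did not pass (edgeR adjusted p = 0.5), and it moved from -1.84 to -0.17 as single libraries were left out. Without irradiated replicate 1 the value was the lower of these, and without untreated replicate 2 the higher. The coefficient of variation of FCER2 was 67.3% in untreated and 84.7% in irradiated libraries at 24 h, against 2.78% to 33.5% for the other 8 receptors in those groups.

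At 5 h all 9 log2 fold changes were negative, and 1 gene passed in the main fit, which has no term for replicate number. With such a term, a replicate block, 8 of the 9 were called lower, beside 1286 of all 12969 genes tested. The labels do not say whether the numbers pair the libraries, so the calls below are those without the block. FCRL1 fell from 30.4, 28.8 and 29.8 CPM to 15.3, 20.4 and 20.3 CPM (log2 fold change -0.68 ± 0.12, edgeR adjusted p = 0.035). Among the 12969 genes tested at 5 h, 0.478% were called lower. FCRL1 was called in neither the fits without untreated replicate 1, 2 or 3 nor those without irradiated replicate 1 or 2 (adjusted p 0.057 to 0.12). In 7 of the 9 genes every irradiated library lay below every untreated one, beside 8.43% of all genes tested.

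MS4A1 had the lowest value at 5 h without passing, at 39.9, 53.2 and 59.8 CPM in untreated and 23.1, 25.5 and 36.4 CPM in irradiated libraries (log2 fold change -0.86 ± 0.20, edgeR adjusted p = 0.11). Without irradiated replicate 3, the highest of its group, the value was -1.09 and passed (adjusted p = 0.027). CD79B went from 49.8, 59.7 and 57.5 CPM to 28.7, 41.6 and 40.0 CPM (-0.61 ± 0.15, adjusted p = 0.11). Its partner CD79A was at 19.6, 24.8 and 18.6 CPM in untreated and 14.3, 16.4 and 15.8 CPM in irradiated libraries (-0.45 ± 0.13, adjusted p = 0.19).

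The log2 fold changes at 5 h were -0.71 ± 0.21 for CR2, -0.63 ± 0.19 for BTLA and -0.41 ± 0.09 for CD22, with edgeR adjusted p of 0.19, 0.21 and 0.092. The groups of these 3 genes did not overlap. For CD72 (-0.09 ± 0.22, adjusted p = 0.9) and FCER2 (-0.36 ± 0.36, adjusted p = 0.75) they did. In both of those genes replicate 3 was the highest library of each group at 5 h, with FCER2 at 239, 202 and 388 CPM in untreated and 166, 139 and 345 CPM in irradiated libraries. CD72 was at 22.8, 20.7 and 29.2 CPM in untreated and 19.7, 18.1 and 30.7 CPM in irradiated libraries. By DESeq2, 5 of the 9 were called lower at 5 h, namely MS4A1, CD79B, CD22, CR2 and FCRL1.

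**Figure D2:**
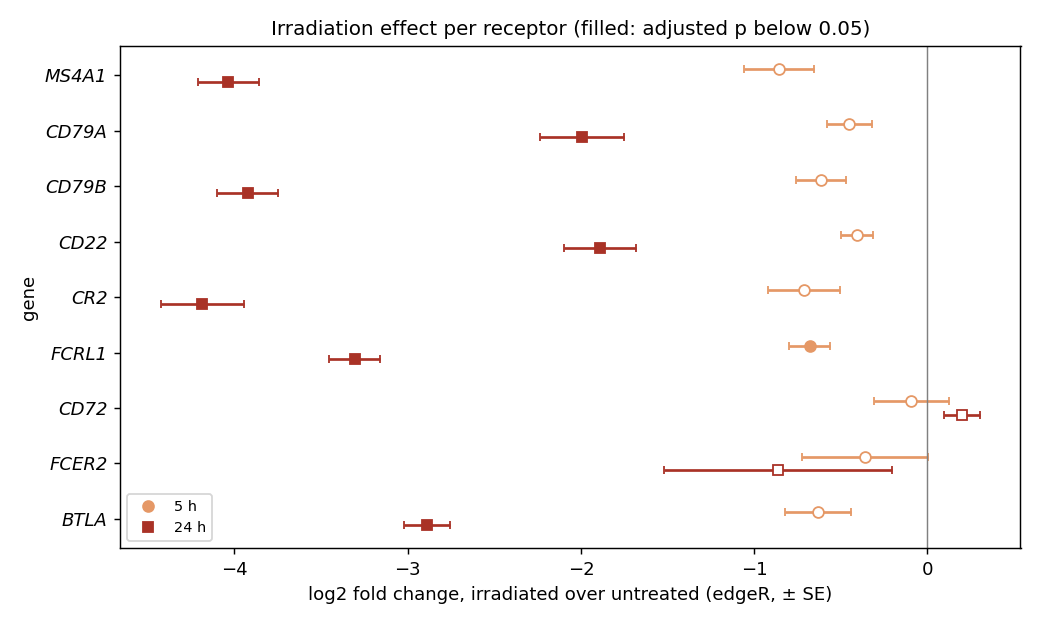
Log2 fold change of each receptor after 2 Gy (edgeR, bars are standard errors), at 5 h as circles and at 24 h as squares, filled where the adjusted p was below 0.05. The 24 h values of 7 genes lie between -4.18 and -1.89, whereas CD72 is near 0 at both times and FCER2 has the widest error bars.

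Whether the irradiation effect differed between the times was tested with an interaction term over all 12 libraries. It was lower at 24 h than at 5 h for 7 receptors, MS4A1, CD79A, CD79B, CD22, CR2, FCRL1 and BTLA, where 0.757% of the 15200 genes tested were called lower. The lowest values were those of CR2 (-3.47 ± 0.34, edgeR adjusted p = 0.00032) and CD79B (-3.31 ± 0.24, adjusted p = 2.9e-05). MS4A1 followed (-3.18 ± 0.29), then FCRL1 (-2.63 ± 0.19) and BTLA (-2.26 ± 0.25). CD79A (-1.55 ± 0.28, adjusted p = 0.022) and CD22 (-1.48 ± 0.23, adjusted p = 0.0094) had the smallest called differences. The CD79A call was lost in 7 of the 12 fits that left out 1 library (adjusted p 0.053 to 0.076). For CD72 the difference was 0.29 ± 0.25 (adjusted p = 0.84) and for FCER2 -0.51 ± 0.82 (adjusted p = 0.95).

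Time alone was compared within each treatment. Among untreated libraries, 6 of the 9 receptors were higher at 24 h than at 5 h and 0 lower, beside 32.6% of all genes called higher and 30.5% lower. CD72 had the largest rise, 3.53-fold (log2 fold change 1.82 ± 0.14, edgeR adjusted p = 1.6e-05). MS4A1 rose 1.66-fold (0.73 ± 0.15), BTLA 1.74-fold, CD22 by 0.68 ± 0.09 on the log2 scale, FCRL1 1.58-fold and CD79B 1.47-fold. At 0.02 ± 0.14 CD79A did not pass, nor did CR2 at -0.16 ± 0.21 and FCER2 at 0.84 ± 0.43. Of the gene lists described below, T cells had 10 of 19 called higher and 0 lower, and natural killer and cytotoxic cells 6 of 11 and 0. Neutrophils had 0 of 12 higher and 8 lower, and the other B cell surface receptors 8 of 22 higher and 8 lower. The TMM factors were 0.849 to 0.887 at 5 h and 1.09 to 1.29 at 24 h, so the scale matters here. With library totals alone, an alternative chosen after seeing the data, the median over all genes moved from 0.11 to 0.52, CD79A (0.44) and FCER2 (1.24) also passed, and CR2 was at 0.26 without passing.

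Among irradiated libraries 7 receptors were lower at 24 h than at 5 h, beside 30.6% of all genes, and CD72 was the only receptor of the set called higher, beside 35.3%. The falls ran from 1.73-fold for CD22 (-0.79 ± 0.20, edgeR adjusted p = 0.0078, and -0.45 with adjusted p = 0.06 by library totals alone) to 12.3-fold for CR2 (-3.62 ± 0.23). MS4A1 fell 5.38-fold and CD79B 6.67-fold. CD72 rose 4.36-fold (2.12 ± 0.19), next to its 3.53-fold rise in untreated cells. FCER2 was at 0.36 ± 0.56 without passing, and at -0.70 without irradiated replicate 1 at 24 h.

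Ratios between receptors within a library were compared next, first for the 2 chains of the dimer. CD79B exceeded CD79A on the FPKM scale by 3.68, 3.92 and 3.81 times in untreated libraries at 24 h. In irradiated libraries the ratio was 1.24, 0.891 and 0.958. The groups stood apart with a log2 difference of -1.90, and the two-sided exact permutation test gave p = 0.1, the smallest that 3 against 3 libraries allow. At 5 h the untreated libraries had ratios of 2.51, 2.37 and 3.06 and the irradiated ones 1.98, 2.50 and 2.49, which overlapped (exact permutation p = 0.4).

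Ratios to MS4A1 were computed for the other 8 receptors at both times, 16 comparisons in all, none of which could pass at 0.05. At 24 h the ratio of CD22 to MS4A1 went on the FPKM scale from between 0.595 and 0.652 to between 1.83 and 3.52 (exact permutation p = 0.1, Benjamini-Hochberg adjusted 0.229). The ratio of CD72 to MS4A1 went from between 0.704 and 1.04 to between 12.8 and 21.1, with the same p. Ratios of CD79B and CR2 to MS4A1 overlapped between the groups at 24 h, with log2 differences of 0.12 (exact permutation p = 0.7) and -0.12 (exact permutation p = 0.4). In contrast, CD79A, CD22, FCRL1, BTLA, CD72 and FCER2 stood higher relative to MS4A1 in every irradiated library than in every untreated one. MS4A1 itself fell 16.4-fold at 24 h, so any gene that fell less stands higher relative to it. How many of all genes did so was not counted.

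**Figure D3:**
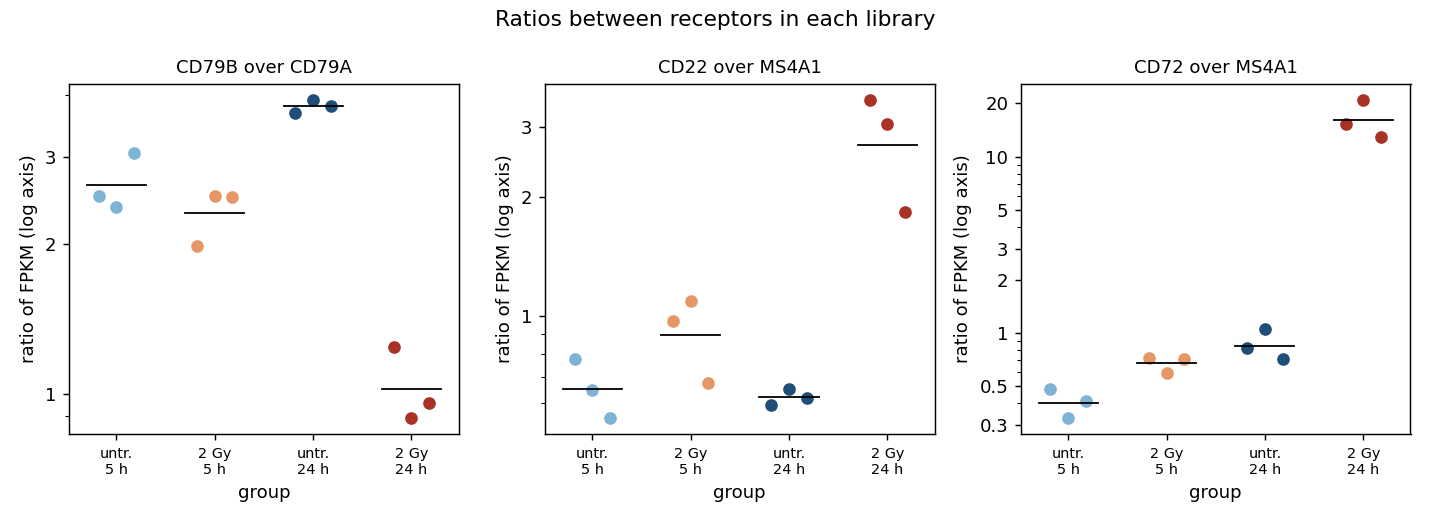
Ratios between receptors on the FPKM scale (log axes) in each library, with the geometric mean of the group as a line, for CD79B over CD79A, CD22 over MS4A1 and CD72 over MS4A1. At 24 h the irradiated libraries lie apart from the untreated ones in all 3 panels, with CD79B over CD79A near 1.

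The order of levels was another one in irradiated cells at 24 h. On the FPKM scale FCER2 was highest (318 ± 262), then CD72 (102.5 ± 6.22), CD22 (17.6 ± 5.10), CD79A (8.77 ± 2.91), CD79B (8.70 ± 1.91) and MS4A1 (6.44 ± 1.18). FCRL1 (4.09 ± 0.23), BTLA (2.37 ± 0.16) and CR2 (0.95 ± 0.17) were lowest. Only the neighbours CD79A and CD79B, and CD79B and MS4A1, had overlapping ranges.

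The genes whose log2 CPM followed each receptor most closely over the 12 libraries were listed as a description, since the libraries share their 4 groups. For MS4A1 they were MFHAS1 (Pearson r = 0.996), the class II chaperone subunit HLA-DOA (0.987) and KHDRBS3 (0.986). CD79B was followed by PAX5 (0.992) and MFHAS1 (0.987), and CD79A by RASGRP2 (0.993) and PLD4 (0.989). For CR2 they were PAX5 (0.990), PIK3C2B (0.986) and BCL11A (0.985), for CD22 NOSTRIN (0.980), TLR10 (0.967) and STRBP (0.961), for FCRL1 MFHAS1, NOSTRIN and KHDRBS3 (0.980 to 0.985), and for BTLA HLA-DOA (0.996), MFHAS1 and ABCB4 (both 0.991). MFHAS1 itself measured 20.4, 19.96 and 23.2 CPM in untreated and 4.73, 4.30 and 5.73 CPM in irradiated libraries at 24 h.

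CD72 and FCER2 had other neighbours. CD72 was followed by CYP1A1, a cytochrome P450 that the aryl hydrocarbon receptor induces (r = 0.992), ARHGAP22 (0.991) and TCEANC (0.991). CYP1A1 went from between 2.66 and 8.17 CPM in the libraries at 5 h to between 61.8 and 225 CPM at 24 h, and like CD72 it was highest in replicate 3 of both groups at 5 h. FCER2 was followed by PHTF2 (0.947), the tryptophanyl-tRNA synthetase WARS (0.934) and YIPF4 (0.922). WARS was highest, as FCER2 was, in untreated replicate 2 (355 CPM, beside 238 and 203) and irradiated replicate 1 (263 CPM, beside 186 and 161) at 24 h.

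Other B cell surface receptors were examined at 24 h as a list. Of 22 tested, 10 fell and 1 rose (median log2 fold change -0.19). FCRLA, an intracellular relative of the Fc receptors, fell by 2.92 ± 0.18 on the log2 scale. FCRL3 (-1.98 ± 0.17) and FCRL4 (-1.82 ± 0.19) also fell. The 1 gene of this list that rose was FCRLB (0.64 ± 0.13, edgeR adjusted p = 0.033). Its mean in untreated libraries was 857 CPM at 5 h and 190 CPM at 24 h, beside 10.5 and 12.1 CPM for PAX5. Which cells expressed FCRLB was not tested. At 5 h 0 of 21 were called by edgeR.

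Transcription factors of B cells showed 9 of 17 lower and 0 higher at 24 h (median -0.89). The lineage factor PAX5 fell by 3.00 ± 0.22, the octamer coactivator POU2AF1 by 2.37 ± 0.17, BCL11A by 1.59 ± 0.17 and MEF2C by 1.48 ± 0.13 on the log2 scale. At 5 h 2 of 17 were lower, IRF8 (-0.98 ± 0.10, edgeR adjusted p = 0.0024) and MEF2C (-0.34 ± 0.06, adjusted p = 0.041).

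The signalling chain behind the receptor was taken as a further list. Of 27 genes tested at 24 h, 7 fell and 1 rose (median -0.16). The kinase BLK (-1.48 ± 0.16) and the adaptor STAP1 (-1.20 ± 0.17) were among those that fell. The 1 gene that rose was FYN (0.43 ± 0.08, edgeR adjusted p = 0.028), a kinase of the Src family like BLK and LYN. LYN was at 0.40 ± 0.13 (edgeR adjusted p = 0.13), SYK, which binds the phosphorylated motifs, at 0.08 ± 0.12 (0.76) and BTK, which acts further down the chain, at -0.32 ± 0.15 (0.27), and none of these passed. LYN, SYK and BTK are also known in myeloid cells. At 5 h 2 of 27 were lower, STAP1 (-0.90 ± 0.13) and the adaptor BLNK (-0.72 ± 0.12).

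Ligands, phosphatases and other partners of the receptors had 1 of 17 called lower and 1 higher at 24 h (median 0.00). Complement C3, the source of the fragments that CR2 binds, rose by 0.80 ± 0.11, and the adaptor SLA2 fell by 0.98 ± 0.19 on the log2 scale. The values were -0.13 ± 0.09 for PTPN6, which encodes SHP-1, -0.08 ± 0.11 for SEMA4D, -0.08 ± 0.08 for ST6GAL1, which makes the sialic acid linkage that CD22 binds, and 0.12 ± 0.11 for TNFRSF14, which encodes HVEM. None of these 4 passed. At 5 h 1 of 17 was called, the interleukin 4 receptor chain IL4R, which rose by 0.57 ± 0.08.

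**Figure D4:**
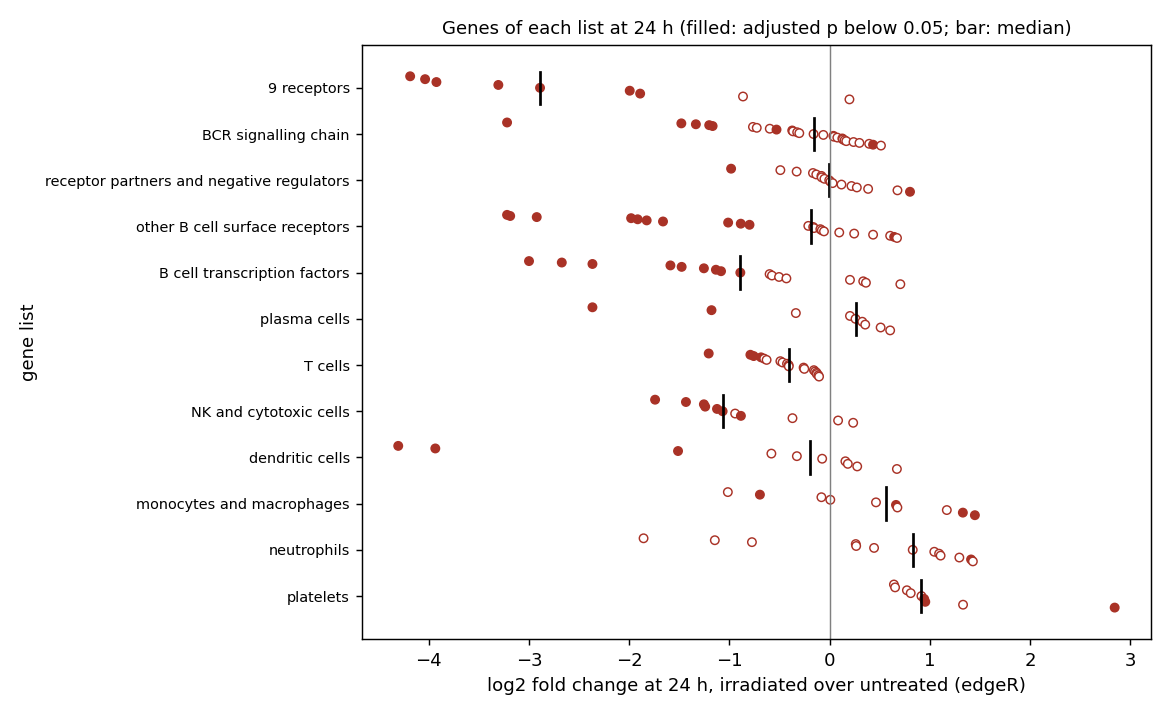
Log2 fold change at 24 h (edgeR) of each gene in the 9 receptors and 11 other lists, filled where the adjusted p was below 0.05, with the list's median as a bar. The receptors have the lowest median, and the T cell, natural killer cell, monocyte, neutrophil and platelet lists lie closer to 0 or above it.

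Markers of other blood cells moved at 24 h as well. Of 19 T cell markers 4 were called lower (median log2 fold change -0.41), with CD3E, a chain of the T cell receptor complex, at -0.76 ± 0.11 (edgeR adjusted p = 0.011). All 19 log2 fold changes were negative, beside 6967 of all 14373 genes tested. The summed level of these markers was 921 to 989 CPM in untreated and 595 to 757 CPM in irradiated libraries. Of 11 markers of natural killer and cytotoxic cells 7 fell (median -1.07), from 450 to 512 CPM to 175 to 255 CPM. Monocyte and macrophage markers, 10 of 16 with a row, had 3 of 10 higher and 1 lower, with ITGAM (1.33 ± 0.11) and ITGAX (1.45 ± 0.13) higher and APOE (-0.70 ± 0.12) lower. The sum of this list went from 3510 to 4180 CPM to 6200 to 7170 CPM, of which ITGAM alone was 1182 to 1304 CPM and 2839 to 3465 CPM. CSF1R, the receptor for the macrophage growth factor, was at 0.01 ± 0.10, MRC1 at -0.08 ± 0.36 and CCR2 at -1.01 ± 0.44, and none of these passed. Of 10 dendritic cell markers 3 fell, namely TCF4 (-1.51 ± 0.09), PLD4 (-3.93 ± 0.27) and CLEC9A (-4.30 ± 0.52). The median of that list was -0.20, and its sums overlapped, at 393 to 483 CPM in untreated and 333 to 437 CPM in irradiated libraries. The other 7 ranged from -0.58 for CD207 to 0.67 for BATF3 without passing. PLD4 was also among the genes that followed CD79A most closely over the 12 libraries (Pearson r = 0.989). Summed neutrophil markers went from 274 to 385 CPM to 566 to 649 CPM (1 of 13 higher), and 3 of the 13 log2 fold changes were negative. MMP9 (mean 154 CPM untreated, 274 CPM irradiated) and S100A12 (111 and 232 CPM) were the largest parts of that sum. Neither passed (edgeR adjusted p = 0.43 and 0.12). Summed platelet markers went from 51.9 to 67 CPM to 109 to 137 CPM (3 of 9 higher), with TUBB1 the largest part (mean 42 and 81.4 CPM). At 5 h the called markers included ITGAM (0.84 ± 0.12) among monocyte genes and TCF4 (-0.81 ± 0.13) and PLD4 (-0.64 ± 0.11) among dendritic cell genes, beside 0 of 19 T cell genes by edgeR. No marker with a row had 0 counts over a whole group, and their part in the receptors' result was not tested.

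Plasma cells lose CD20, CR2 and FCER2 from their surface as they mature, so their markers were listed too. At 24 h 2 of 9 fell and 0 rose, POU2AF1, which B cells share, and the joining chain gene IGJ (-1.18 ± 0.16). SDC1 (CD138) was at 0.51 ± 0.37 and XBP1 at 0.33 ± 0.10, neither of which passed. FCER2 is also known on monocytes and eosinophils. Summed markers of eosinophils and basophils, 8 of 12 with a row, came to between 9.62 and 23.5 CPM in the libraries at 24 h. Of these genes 0 of 7 tested were called by edgeR. Summed monocyte and macrophage markers came to between 3510 and 7170 CPM, and FCER2 in the same libraries was between 113 and 854 CPM. The part of these cells in the FCER2 values was not tested.

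The authors' deposited table gives log2 ratios of untreated over irradiated, opposite in sign to the values above, of 3.94 for MS4A1, 4.06 for CR2 and -0.26 for CD72 at 24 h. The same table lists a splicing log2 ratio for 2 of the 9 receptors at 24 h and for none at 5 h, where a non-zero entry exists for 2.99% and 1.71% of all genes. In the authors' deposited table the entry of CD79B is -1.39, at scaffold 31, 29710538 to 29710572, inside the gene. That of FCRL1 is -2.07, at scaffold 33, 6365817 to 6365857. Its last position is the highest coordinate of the gene's model, which is the start of this minus strand gene. The sources used here do not state how these entries were computed or which group they favour.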

How the data were processed

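The authors deposited 1 table per time point with raw read counts per Ensembl gene, FPKM and regularized log values, per the file headers. Positions are in scaffolds of the assembly named L_africana_Jul_2009 in the header, with coordinates as deposited. Aligner, read counter and strand setting: not given in the sources used here. Reads of overlapping genes may therefore be mixed. The authors' deposited log2 ratios were only set beside the fits.

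Counts were tested with edgeR 4.0.16 in R 4.3.3 (TMM, filterByExpr, quasi-likelihood F test, Benjamini-Hochberg adjustment over all genes tested, threshold 0.05). Each comparison used its own 6 libraries and the interaction all 12, without a replicate block. Standard errors were taken from the F statistic. DESeq2 1.42.0, other filters and scalings, the block and leaving out each library were alternatives. Likeness used log2 CPM with a prior count of 2, 3 genes per receptor. Named genes are the 9 receptors, those with the smallest p per list (up to 4 for pathways, 2 for cell types, more where a count of 5 or fewer is spelled out), and some always named (LYN, BTK, SYK, PAX5, SDC1, XBP1, CD3E). PTPN6, SEMA4D, ST6GAL1, TNFRSF14, CSF1R, MRC1, CCR2, CD207, BATF3, MMP9 and S100A12 were named after their values were seen. The receptors and lists were chosen with earlier results of these data known. The fits were tested on simulated data. Sequences and motifs were not analysed here. Some genes that these rules name are not reported here.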

Additional observations from a re-analysis of the deposited data

Results flagged for a closer look

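The irradiation effect differed between 24 h and 5 h, by edgeR's interaction test, in 7 receptors, with log2 differences of -3.18 for MS4A1, -1.55 for CD79A, -3.31 for CD79B, -1.48 for CD22, -3.47 for CR2, -2.63 for FCRL1 and -2.26 for BTLA. Of all 15200 genes tested, 0.757% were called lower by this test. The CD79A call was lost in some fits that left out 1 library (edgeR adjusted p up to 0.076). The 2 times share no libraries.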

How the results depend on the processing

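At 24 h all 7 receptors stayed called lower in every alternative tried. At 5 h the count of 1 became 5 in DESeq2, 8 with the replicate block and 0 to 2 when 1 library was left out. Over all genes the 207 calls at 5 h became 444 in DESeq2, 2655 with the block and 86 to 191 without 1 library. At 24 h the 968 became 1703 in DESeq2, 1670 with all 12 libraries in 1 fit and 293 to 1061 without 1 library. The 134 of the interaction became 326 in DESeq2 and 76 to 168. In no other comparison did the block change a receptor's call.

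Replicate numbers were not taken to pair the libraries. Deviations of same-numbered libraries correlated at 0.141, 0.0955 and 0.343 at 5 h, where every library correlated best with its own number, and at 0.144, -0.365 and 0.623 at 24 h. There irradiated and untreated replicates 1 and 2 correlated across numbers, at 0.424 and 0.415, and no pairing was formed from this.

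Signs turned where values were small. Without 1 library, CD72 at 5 h ran from -0.38 to 0.0607, positive without untreated replicate 3 or irradiated replicate 1 or 2. The FCER2 interaction ran from -1.49 to 0.19, positive without untreated replicate 2 at 24 h, and its change between the times in irradiated cells from -0.70 to 0.82, negative without irradiated replicate 1 at 24 h. Between the times in untreated cells CD79A was -0.0336 with RLE factors and in DESeq2, -0.0515 without a filter, -0.0176 in the fit of all 12 and -0.0957 to 0.15 without 1 library. CR2 was 0.26 by library totals and -0.32 to 0.03005 without 1 library. Against CD79B instead of MS4A1 the log2 ratio differences at 5 h were -0.0877 for CR2, -0.0655 for FCRL1 and -0.00684 for BTLA. Without 1 library the ratio of CR2 at 5 h ran from -0.0934 to 0.37 and of CD79B at 24 h from -0.0364 to 0.31. The cause was not tested. By library totals the share of calls that were higher at 24 h than at 5 h went from 51.6% to 76% in untreated and from 53.6% to 72.6% in irradiated libraries. CR2 and BTLA had 35 to 69 counts per irradiated library at 24 h, and the part of depth in their errors was not tested.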
